A study of Mus musculus with 4 samples.

Results

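The gene group described here holds 10 cartilage genes, taken by symbol out of the 45802 gene symbols of a total RNA sequencing table of mouse periosteal cells. They are 3 transcription factors of the cartilage program (*Sox5*, *Sox6* and *Sox9*) and 7 genes of cartilage matrix or of the chondrocyte surface (*Acan*, *Col2a1*, *Col9a1*, *Col10a1*, *Otor*, *Cspg4* and *Chad*). All 10 symbols were listed. Values were given for 9 of them, and for 8 in every library (of 14415 such genes in the table). The gene *Chad* (chondroadherin, a leucine-rich matrix protein that binds chondrocytes) was blank throughout.

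PDGFRα reporter+ and PDGFRα reporter- cells came from the hindlimb periosteum of male Pdgfrα-mTmG mice aged 9 to 10 weeks. Every animal, and so both groups, had received 5 daily doses of tamoxifen (150 mg/kg) from 2 months of age. The last injection was 14 days before the cells were taken. Both ages are given as the sources state them, and 9 to 10 weeks is younger than these tamoxifen times would give. Tamoxifen turns on a Cre recombinase driven by the *Pdgfra* promoter, and recombined cells switch from membrane tdTomato to membrane GFP. The reporter therefore records promoter activity at the time of tamoxifen, and not PDGFRα at the time of the sort. Cells were grown for 1 passage with 10 ng/mL bFGF, and CD31+, CD45+ and Ter119+ cells were gated out before GFP+ (reporter+) and tdTomato+ (reporter-) cells were sorted. Each population pooled 3 to 6 mice according to the labels (the methods give another number), and 2 libraries of each population were sequenced.

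Cartilage is built by chondrocytes, whose identity depends on SOX9, and SOX5 and SOX6 act with SOX9 on the enhancers of cartilage matrix genes. The matrix itself is a network of type II, IX and XI collagen that holds aggrecan, a proteoglycan loaded with chondroitin sulfate, and type X collagen is added when chondrocytes become hypertrophic. Periosteal cells can form either bone or cartilage, and cartilage appears in the callus of a healing fracture. The cells measured here were grown in expansion medium and not in chondrogenic medium. The question addressed is whether cartilage genes differ between the sorted populations before differentiation.

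The deposited values are log2 expression values after quantile normalization, with a blank where no signal was listed, and they ran from −10.07 to 11.73 in each library. The linear unit under the logarithm and the sequencing depth are not given in the sources used here, so no counting error can be stated. Levels of different genes enter only as a rank within a library and as summed levels of lists, where genes with high values weigh most. In the table the libraries of each population carry the number 2 or 3. What the number marks is not stated, and the labels number the replicates differently, so each library is named by its population and the number in its heading. The labels do not say whether libraries of a population came from separate animals, so a p-value measures only the spread between these libraries. Since the cells were sequenced in bulk, fewer cells of a type and less RNA per cell cannot be told apart. Of the periosteal stroma markers, 10 of 10 had a value in every library, and *Pdgfra* itself had a log2 fold change of 0.05 (SE 0.24) between the populations.

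Of the 5 cartilage matrix genes with 4 values, 4 were lower in PDGFRα reporter+ than in PDGFRα reporter- cells, and of the 3 SOX genes 2 were lower and 1 higher, but none of these differences passed the test. Of the 8 genes with a value in every library, 6 had a negative and 2 a positive log2 fold change (mean of the reporter+ libraries minus mean of the reporter- libraries). The largest differences were those of *Col2a1* (−1.51), *Col10a1* (−0.89), *Otor* (−0.80) and *Cspg4* (−0.74). The median was −0.08 for the 3 SOX genes and −0.80 for the 5 matrix genes, beside −0.0035 over all 14415 genes tested. None of the 8 genes passed the test: limma gave an adjusted p of 1 for each, 0% of all genes tested had an adjusted p under 0.05, and 0 of the 8 had an unadjusted p under 0.05, beside 131 (0.909%) of all genes. With a library left out, which leaves the numbers unbalanced, the genes lower in reporter+ cells were 2 of 8 without reporter+ library 3, 3 without reporter- library 2, and 8 without reporter+ library 2 or without reporter- library 3. The study named *Col2a1*, *Cspg4* and *Otor* from these same libraries, so their direction here is not independent evidence. By qRT-PCR after chondrogenic micromass culture, a condition not measured here, the study reported higher *Sox9*, *Acan*, *Comp* and *Col2a1* in reporter- cells.

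**Figure D1:**
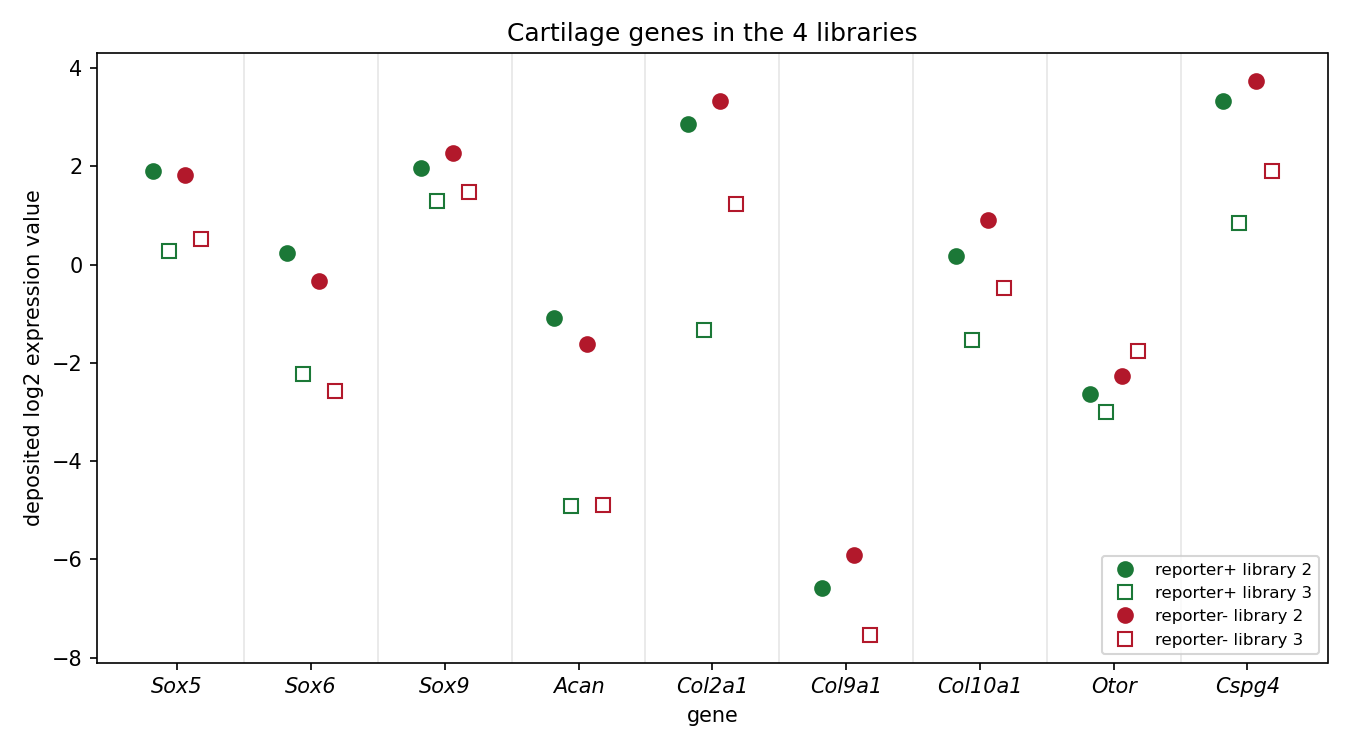
Deposited log2 value (vertical axis) of the 9 cartilage genes with any value, with 1 point per library: green for reporter+, red for reporter-, filled circles for libraries numbered 2 and open squares for libraries numbered 3. In 7 of the 8 genes with 4 values, both filled circles lie above both open squares, and in *Otor* both green points lie below both red points.

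The strongest pattern among the cartilage genes was between the library numbers and not between the populations. In 7 of the 8 genes, all but *Otor*, both libraries numbered 2 lay above both libraries numbered 3. Over all genes tested, 28.8% were ordered this way and 36.4% the opposite way, and 0 of the 8 cartilage genes were ordered the opposite way. The difference between numbers was larger than the difference between populations in the same 7 genes, which was also the case for 75.7% of all genes. The spread within each population was therefore wide for these genes, and the populations overlapped in 7 of the 8.

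SOX9 is the transcription factor without which cartilage does not form. The log2 value of *Sox9* (chromosome 11, 112782224 to 112787760 in GRCm38) was 1.97 in reporter+ library 2 and 1.29 in reporter+ library 3, and 2.27 in reporter- library 2 and 1.48 in reporter- library 3. It was slightly lower in reporter+ cells within each number, by differences of −0.30 and −0.18, and its populations overlapped. Its means were 1.63 ± 0.48 (SD, n = 2) and 1.87 ± 0.56 (SD, n = 2), and the log2 fold change of −0.24 was smaller than its SE of 0.39 (limma, adjusted p = 1). It was 0.09 without reporter+ library 3 and 0.15 without reporter- library 2.

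SOX5 and SOX6 are closely related proteins that lack an activation domain of their own and strengthen the binding of SOX9. The log2 value of *Sox5* (chromosome 6, 143828425 to 144781977) was 1.91 and 0.28 in reporter+ libraries 2 and 3, and 1.82 and 0.52 in reporter- libraries 2 and 3. Its populations differed in opposite directions within the numbers, by 0.09 in number 2 and −0.24 in number 3, giving a log2 fold change of −0.08 (SE 0.73; 0.74 without reporter+ library 3 and 0.57 without reporter- library 2). *Sox6* (chromosome 7, 115470872 to 116038796) was the only gene of the 8 higher in reporter+ cells within both numbers, with 0.23 and −2.22 in reporter+ libraries 2 and 3 against −0.34 and −2.58 in reporter- libraries 2 and 3. The log2 fold change of *Sox6* was 0.46 (SE 1.17; −0.76 without reporter+ library 2 and −0.66 without reporter- library 3), and 22.1% of all genes were higher within both numbers. None of the noncoding genes annotated within *Sox5* and *Sox6* had a value in any library.

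*Col2a1* encodes type II collagen, the main collagen of cartilage fibrils. Its log2 value was 2.86 in reporter+ library 2, −1.33 in reporter+ library 3, 3.32 in reporter- library 2 and 1.23 in reporter- library 3. Reporter+ library 3 stood well below the other 3 libraries, at percentile 25.8 of that library's values, against percentiles of 72.7, 79.7 and 46.4 in reporter+ library 2, reporter- library 2 and reporter- library 3. Within the numbers the difference between populations was −0.46 in number 2 and −2.55 in number 3. The means of *Col2a1* (chromosome 15, 97975602 to 98004695) were 0.77 ± 2.96 (SD, n = 2) in reporter+ and 2.27 ± 1.48 (SD, n = 2) in reporter- cells. The log2 fold change of −1.51 corresponds to a level 2.84-fold higher in reporter- cells, and was smaller than its SE of 1.57 (limma, adjusted p = 1). Only 0.617% of all genes tested had a log2 fold change at or below that of *Col2a1*. With a library left out, which leaves the numbers unbalanced, the log2 fold change was 0.58 without reporter+ library 3, −0.46 without reporter- library 2, −2.55 without reporter- library 3 and −3.60 without reporter+ library 2.

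*Acan* encodes aggrecan, the large proteoglycan that gives cartilage its swelling pressure. Its log2 value was −1.09 and −4.91 in reporter+ libraries 2 and 3, and −1.62 and −4.89 in reporter- libraries 2 and 3. The pair numbered 3 had almost the same value (difference −0.02), and in the pair numbered 2 reporter+ cells were higher by 0.53. The log2 fold change of *Acan* (chromosome 7, 79053483 to 79115099) was 0.26 (SE 1.75), the only positive one among the matrix genes. It was −1.65 without reporter+ library 2 and −1.38 without reporter- library 3.

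The other collagens of the group are *Col9a1*, which encodes a chain of the type IX collagen that sits on the surface of type II fibrils, and *Col10a1*, the collagen of hypertrophic chondrocytes. *Col9a1* (chromosome 1, 24177610 to 24252684) was among the low values, with −6.59 in reporter+ library 2, −5.91 in reporter- library 2 and −7.53 in reporter- library 3, and was blank in reporter+ library 3. It was lower in reporter+ cells by a difference of −0.68 in number 2, and with a blank no test was made. With the blank set to the lowest value of the table, its log2 fold change was −1.61. *Col10a1* had log2 values of 0.18 and −1.53 in reporter+ libraries 2 and 3, and of 0.91 and −0.48 in reporter- libraries 2 and 3. It was lower in reporter+ cells by a similar amount within each number, −0.73 and −1.05, and its log2 fold change was −0.89 (SE 0.79; limma, adjusted p = 1). It was −0.04 without reporter+ library 3, −0.20 without reporter- library 2, −1.74 without reporter+ library 2 and −1.58 without reporter- library 3. *Col10a1* (chromosome 10, 34389981 to 34397085) lies wholly within *Nt5dc1*, a gene on the opposite strand, and whether reads were counted by strand is not stated. *Nt5dc1* had a log2 fold change of 0.07, with within-number differences of −0.10 and 0.24.

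*Otor* encodes otoraplin, a small secreted protein first known from the cochlea and related to the cartilage protein MIA. Its log2 value was −2.63 and −2.99 in reporter+ libraries 2 and 3, and −2.26 and −1.75 in reporter- libraries 2 and 3. It was the only gene of the 8 whose populations did not overlap, and both reporter+ libraries lay below both reporter- libraries, which was the case for 8.1% of all genes tested (7.59% lay above). The means of *Otor* (chromosome 2, 143078473 to 143081713) were −2.81 ± 0.26 (SD, n = 2) and −2.01 ± 0.36 (SD, n = 2), and the log2 fold change was −0.80 (SE 0.49; limma, adjusted p = 1). With a pseudocount of 1 added to the linear values it was −0.13. The difference was −0.37 in number 2 and −1.24 in number 3, and *Otor* was also the only one without a common order of the numbers, since library 3 was lower in reporter+ cells (−0.36) and higher in reporter- cells (0.51). Its related gene *Mia* had a log2 fold change of −0.28 (SE 0.61) with differences of 0.15 and −0.71.

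*Cspg4* encodes NG2, a membrane proteoglycan found on chondrocytes and also on pericytes and glial precursors. Its log2 value was 3.32 and 0.84 in reporter+ libraries 2 and 3, and 3.74 and 1.90 in reporter- libraries 2 and 3. It was lower in reporter+ cells within both numbers, by −0.42 and −1.06, while the populations overlapped. The log2 fold change of *Cspg4* (chromosome 9, 56865033 to 56899870) was −0.74 (SE 1.04; limma, adjusted p = 1). It was 0.50 without reporter+ library 3 and 0.18 without reporter- library 2. *Chad* (chromosome 11, 94565047 to 94569127) lies within *Acsf2* on the opposite strand. *Acsf2* had a value in every library, and *Chad* in none.

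**Figure D2:**
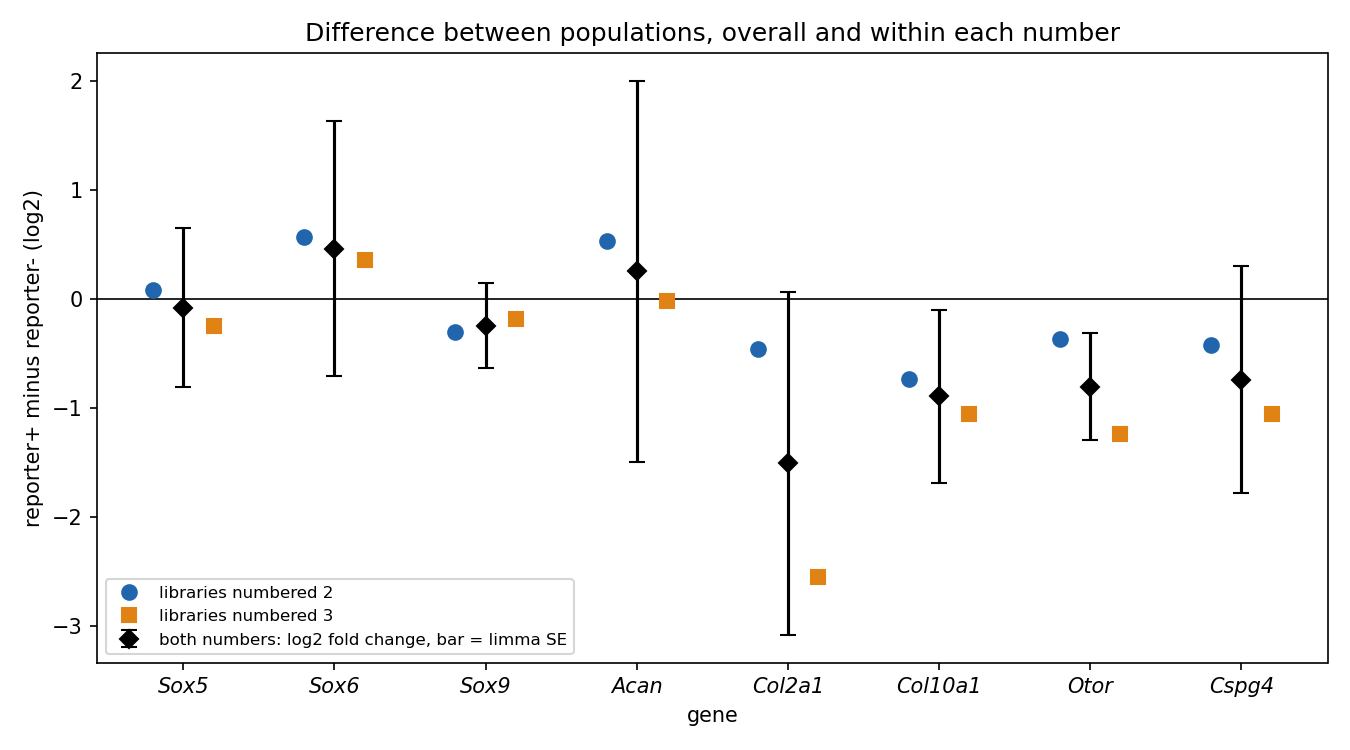
Difference between reporter+ and reporter- cells on the log2 scale (vertical axis) for the 8 genes with 4 values, as the log2 fold change over both numbers (black diamonds, bars are ± 1 SE from limma) and within the libraries numbered 2 (blue circles) and 3 (orange squares). *Sox9*, *Col2a1*, *Col10a1*, *Otor* and *Cspg4* lie below 0 within both numbers, *Sox6* lies above 0 within both, and *Sox5* and *Acan* change sign.

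If libraries with the same number belong together, which no source states, a comparison within a number leaves out the difference between numbers. In 5 of the 8 genes (*Sox9*, *Col2a1*, *Col10a1*, *Otor* and *Cspg4*) reporter+ cells were lower within both numbers, compared with 24.8% of all genes tested. In number 2 alone 5 of the 8 genes were lower in reporter+ cells, and in number 3 alone 7 of the 8 were. For the 4 matrix genes among the 5, the difference was larger in number 3 than in number 2, but for *Col10a1* this turned with a pseudocount of 1 (−0.43 in number 2 and −0.35 in number 3). Each such difference rests on 1 library against 1 and has no replicate check.

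Between the numbers, *Acan* and *Col2a1* differed most. The values of *Acan* were lower in library 3 than in library 2 by −3.82 in reporter+ and −3.27 in reporter- cells, on average an 11.6-fold higher level in the libraries numbered 2. For *Col2a1* the differences were −4.18 and −2.09 (8.79-fold on average), for *Sox6* −2.45 and −2.24 (5.09-fold), and for *Cspg4* −2.48 and −1.84 (4.47-fold). Smaller differences were found for *Col10a1* (−1.71 and −1.39), *Sox5* (−1.63 and −1.30) and *Sox9* (−0.68 and −0.79). Of all genes tested, 0.125% had a difference between numbers at or below that of *Acan*, 0.277% at or below that of *Col2a1* and 10.5% at or below that of *Sox9*. The summed level of the cartilage genes with a value (9, and 8 in reporter+ library 3), given as the log2 of the sum of their linear values, was 4.80 and 2.72 in reporter+ libraries 2 and 3, and 5.12 and 3.52 in reporter- libraries 2 and 3.

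**Figure D3:**
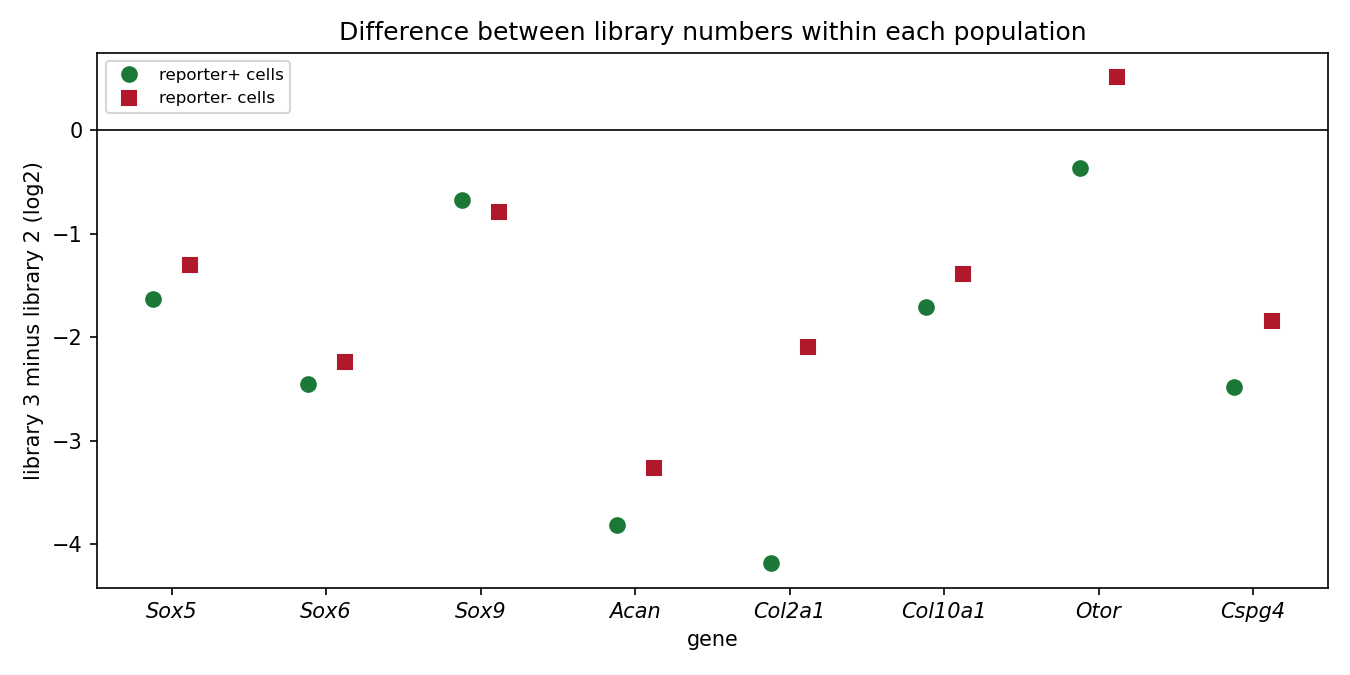
Difference between library 3 and library 2 of the same population on the log2 scale (vertical axis) for the 8 genes with 4 values, in reporter+ cells (green circles) and reporter- cells (red squares). Except for *Otor* in reporter- cells, at 0.51, all points lie below 0, down to −4.18 for *Col2a1* in reporter+ cells.

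Promoter sequences are shown for 3 genes that were lower in reporter+ cells within both numbers, to show what lies at the start of these matrix genes. They are RefSeq windows on GRCm38.p6 from 250 bases before to 50 bases after a gene's start, on the plus strand. Such windows were matched for 8 of the 10 cartilage genes (14 windows). None was matched for *Sox9* and *Col2a1*, which were also lower in reporter+ cells within both numbers. Capitals mark matches, on either strand, to the SOX cores AACAAT and ACAAAG, the RUNX core TGTGGT and the TATA box TATAAA. The windows are chr10:34389731-34390030 for *Col10a1*, chr2:143078143-143078442 for *Otor* and chr9:56864854-56865153 for *Cspg4*.
Col10a1: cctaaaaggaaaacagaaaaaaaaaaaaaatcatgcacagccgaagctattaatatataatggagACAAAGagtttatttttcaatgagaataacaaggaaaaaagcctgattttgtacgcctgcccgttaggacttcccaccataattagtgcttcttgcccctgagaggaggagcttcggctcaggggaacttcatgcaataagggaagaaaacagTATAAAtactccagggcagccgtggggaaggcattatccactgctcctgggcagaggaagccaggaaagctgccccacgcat
Otor: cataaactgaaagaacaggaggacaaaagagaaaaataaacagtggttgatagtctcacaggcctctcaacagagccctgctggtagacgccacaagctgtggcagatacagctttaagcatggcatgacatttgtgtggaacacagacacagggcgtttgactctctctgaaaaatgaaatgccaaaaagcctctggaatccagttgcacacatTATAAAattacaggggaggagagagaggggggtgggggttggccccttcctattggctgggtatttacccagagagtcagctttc
Cspg4: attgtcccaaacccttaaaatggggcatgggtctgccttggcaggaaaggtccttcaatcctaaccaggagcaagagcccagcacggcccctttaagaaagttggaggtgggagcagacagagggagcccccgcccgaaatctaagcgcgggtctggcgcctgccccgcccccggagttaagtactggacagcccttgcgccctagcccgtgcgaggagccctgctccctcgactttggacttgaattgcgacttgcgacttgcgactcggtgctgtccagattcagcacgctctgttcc

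A TATAAA was found at position −32 from the start in *Col10a1*, at −35 in *Otor* and, outside the sequences printed, at −28 in the window of *Chad* and in 2 of the 6 windows of *Sox6* (at −225 and 31). It occurs in 13.6% of the 32851 promoter windows of the same length. The SOX core ACAAAG was found in *Col10a1* at −185 and in 5 of the 6 windows of *Sox6*, beside 18.7% of all windows. AACAAT was found in 1 window of *Sox6* (10.7% of all windows) and TGTGGT in 2 windows of *Sox6* (16.8%), in 1 of which it overlaps an ACAAAG. The windows of *Cspg4*, *Acan*, *Sox5* and *Col9a1* held none of the 4 motifs. A match describes these letters only and is not a binding site.

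Other genes of the cartilage program were taken in 6 lists. Of the 67 other cartilage genes, 65 had a value in some library and 59 in all. The log2 fold change was negative for 24 and positive for 35 of the 59, with a median of 0.08. Adjusted p-values under 0.05 were found for 0 of them (limma without a block), beside 2 with an unadjusted p under 0.05 (0.909% of all genes). Reporter+ cells were lower within both numbers for 12 and higher within both for 17 of the 59.

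Among other cartilage matrix proteins, 4 were lower and 7 higher in reporter+ cells. *Comp*, a pentameric protein that links collagen fibrils in cartilage and tendon, had log2 values of 8.09 and 7.97 in reporter+ libraries 2 and 3 against 7.06 and 7.53 in reporter- libraries 2 and 3. Its log2 fold change was 0.74 (SE 0.25; limma, adjusted p = 1), and its populations did not overlap. *Matn4* (a matrilin) had a log2 fold change of 0.87 (SE 0.31; limma, adjusted p = 1), and *Prg4*, which encodes the joint lubricant lubricin, one of 0.69 (SE 0.29). The populations did not overlap for these and for *Epyc*, named after its value was seen, so that 4 of the 11 genes lay higher in reporter+ cells without overlap, beside 7.59% of all genes. *Comp* and *Prg4* thus lay on the opposite side of 0 from *Col2a1* and *Col10a1*.

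Of the other cartilage collagens, 2 were lower and 3 higher. *Col9a3*, another chain of type IX collagen, had a log2 fold change of −0.59 (SE 0.76). That of *Col9a2*, also a type IX chain, was 0.37 (SE 0.67), with differences of −0.19 in number 2 and 0.93 in number 3. *Col11a2*, a chain of type XI collagen, had one of 0.18 (SE 0.54). Of the other cartilage transcription factors, 4 were lower and 9 higher, with a median of 0.11. *Sox4* had a log2 fold change of −0.10 (SE 0.47), *Sox8*, a close relative of *Sox9*, one of −0.47 (SE 0.63), and *Sox11* one of 0.74 (SE 0.89). *Runx2*, which drives both hypertrophy of chondrocytes and bone formation, had means of 0.39 ± 0.15 (SD, n = 2) and 0.38 ± 0.22 (SD, n = 2).

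Genes of growth plate signaling and hypertrophy were divided, with 6 lower and 6 higher. *Mmp13*, the collagenase that degrades type II collagen, had log2 values of 5.06 and 6.34 in reporter+ libraries 2 and 3 against 3.88 and 5.15 in reporter- libraries 2 and 3. It was 1.19 higher in reporter+ cells within each number (log2 fold change 1.19, SE 0.62, adjusted p = 1 by limma without a block). With the library number as a block, which no source describes as a pairing, the adjusted p of *Mmp13* was 0.0101 (limma). With that block and no variance trend, 0 of all genes passed. *Ibsp* (bone sialoprotein) had a log2 fold change of 1.35 (SE 0.77), with differences of 2.51 in number 2 and 0.18 in number 3. *Panx3*, a channel protein of hypertrophic chondrocytes and osteoblasts, had one of −1.08 (SE 0.95), with differences of −0.19 and −1.96. Genes that build and sulfate chondroitin were 7 lower and 6 higher, with a median of −0.02. The largest difference there with 1 direction in both numbers was that of *Chpf*, a chondroitin polymerizing factor, at −0.32 (SE 0.14). Among genes of aggrecan and collagen II turnover, 1 was lower and 4 higher, and the aggrecanase *Adamts5* had a log2 fold change of 0.36 (SE 0.31).

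**Figure D4:**
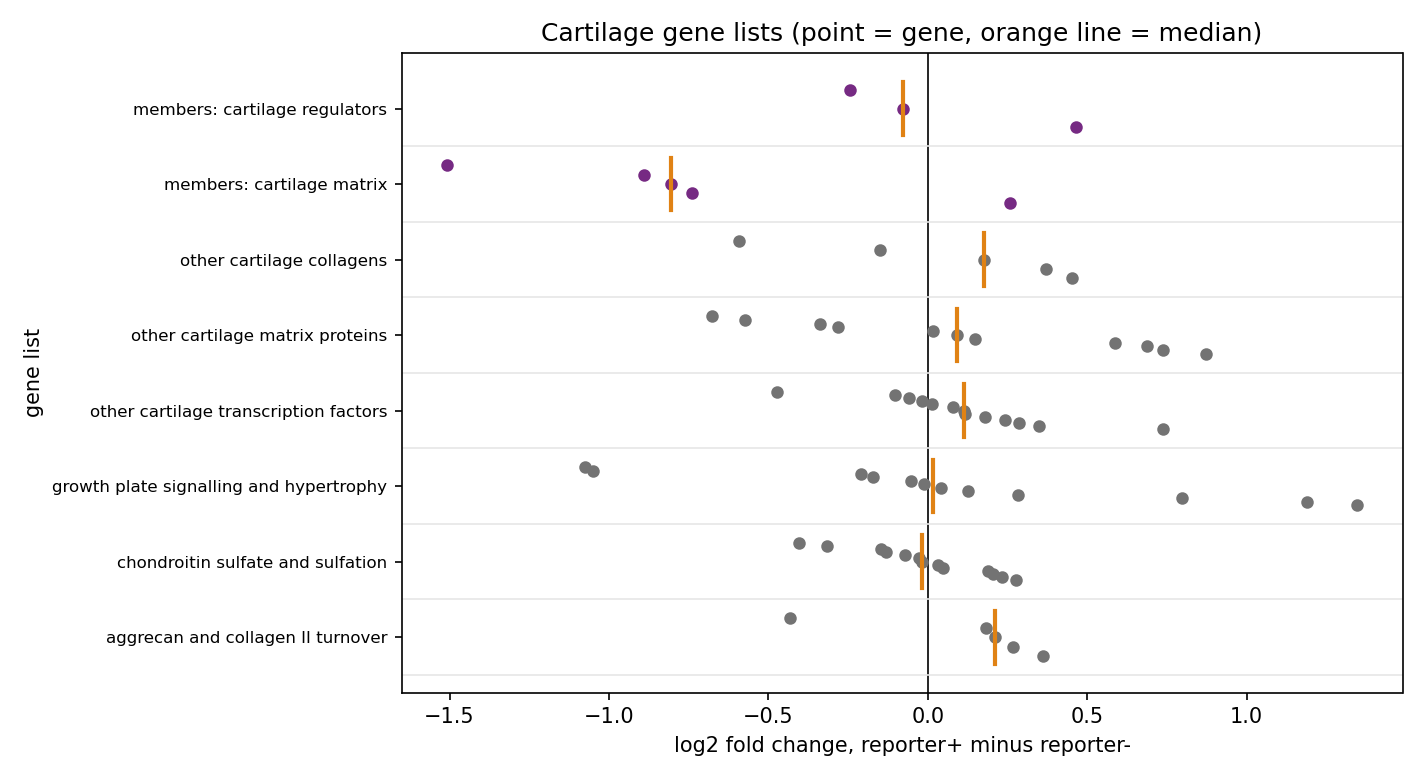
Log2 fold change between reporter+ and reporter- cells (horizontal axis) of each cartilage gene with 4 values, by list (vertical axis), with the genes described above in purple, other genes in gray and the median of each list as an orange line. The median lies at −0.80 for the 5 matrix genes of the group, and between −0.02 and 0.21 for the 6 other lists.

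Of the 13 chondrocyte markers, 6 had a value in every library and 3 had none at all (*Chad*, *Matn1* and *Snorc*, listed as 3110079O15Rik). The list shares 6 genes with those described above, *Col2a1* among them, so its summed level is not a separate measure: it was 3.75 and 2.09 in reporter+ libraries 2 and 3, and 4.16 and 2.80 in reporter- libraries 2 and 3. Of the 7 other markers 2 had a value in every library. Both libraries numbered 2 lay above both numbered 3 for *Hapln1*, which encodes the link protein that fixes aggrecan to hyaluronan, and below both for *Col11a2*.

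Markers of other cell types were compared as well. Of the endothelial, mural, glia and macrophage markers, 0 had an adjusted p under 0.05 (limma without a block). With the library number as a block, 1 macrophage marker had one (*Tyrobp*, limma, adjusted p = 0.0437). With that block and no variance trend, 0 of all genes had one. All 6 endothelial markers with 4 values were lower in reporter+ cells. The summed level of the list was 0.44 to 0.64 in reporter+ and 1.62 to 2.01 in reporter- libraries. These sums rest mainly on *Erg* in the libraries numbered 2 and on *Tek* in those numbered 3, with log2 fold changes of −0.40 and −0.77. Over the 6 markers the median log2 fold change was −2.50, with −4.26 for *Cdh5*, −3.44 for *Emcn* and −3.19 for *Pecam1*. Of the 8 mural markers (pericytes and smooth muscle), 5 were lower in reporter+ cells (*Myh11*, *Des*, *Acta2*, *Mcam* and *Notch3*) and 3 were higher (*Kcnj8*, *Abcc9* and *Rgs5*), and members known from pericytes stood on both sides. The mural sum was 2.98 to 4.24 in reporter+ and 3.96 to 4.74 in reporter- libraries. Of the 6 Schwann cell and glia markers with 4 values 5 were lower, and the sum was 0.44 to 1.93 against 1.27 to 2.11. The defining glia genes *Sox10* and *Foxd3* were blank in both reporter+ libraries and listed in both reporter- libraries. All 8 macrophage markers were higher in reporter+ cells, with sums of 7.84 to 8.09 against 6.48 to 7.45. *Lyz2* made up most of these sums (7.65 and 7.88 in reporter+, 6.27 and 7.25 in reporter- libraries 2 and 3). Between the numbers, the summed level of the glia list was lower in library 3 than in library 2 (1.93 and 0.44 in reporter+ libraries 2 and 3, 2.11 and 1.27 in reporter- libraries 2 and 3), as were most of the cartilage genes. Most of the glia sum came from *S100b* (1.64 and −0.17 in reporter+, 1.79 and 0.84 in reporter- libraries 2 and 3). The mural sum was higher in library 3 (2.98 and 4.24, then 3.96 and 4.74), as were the macrophage sum (7.84 and 8.09, then 6.48 and 7.45) and the osteoblast sum (1.64 and 2.41, then 1.01 and 1.91). The mural sum followed *Acta2* (1.30 and 3.66, then 3.18 and 4.32). Over the 8 mural markers the median difference between numbers was −0.014. Both libraries numbered 3 lay above both numbered 2 for 2 mural markers, and 0 were ordered the opposite way. Both libraries numbered 2 lay above both numbered 3 for 3 of the 6 glia markers, and 0 of them were ordered the opposite way. The part of these cell types in the values of the cartilage genes was not tested.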

How the data were processed

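RNA of 4 libraries, 2 of each sorted population, was sequenced as stranded paired-end Illumina libraries. The authors deposited log2 values after quantile normalization, 1 per gene symbol and library. The submitters' processing notes name bcl2fastq 2.17.1.14, Partek 7.0 and GRCm38.p6, and the aligner, the counting, the annotation and the linear unit are not given in the sources used here. Depth is unknown. Columns were assigned to a population only. Genes with a value in every library (14415) entered a limma 3.58.1 model under R 4.3.3 (eBayes with a variance trend, two-sided, no block), with Benjamini-Hochberg adjustment over all of them and a threshold of 0.05; 2 libraries against 2 allow no exact permutation p under 0.333. The model was also run on simulated data, and the outcome of that run is not given here. Positions are from GENCODE M21 (GRCm38), and promoters from RefSeq. Summaries used Python 3.11.15, numpy 2.4.6, pandas 2.3.3 and matplotlib 3.10.9. The cartilage genes and the lists were chosen with earlier results of these data known. Genes to name were all 10 cartilage genes, genes overlapping them and, per list, the 3 with the largest fold change in 1 direction within both numbers, plus *Comp*, *Sox4*, *Runx2* and *Mia*. Not all of these are described. *Pdgfra*, *Epyc*, *Col9a2*, *Hapln1*, *Mcam*, *Notch3*, *Kcnj8*, *Abcc9*, *Rgs5*, *Erg*, *Tek*, *Lyz2*, *S100b* and the genes named for blanks were chosen after their values were seen. Alternatives covered the block, trend, filter, pseudocount, blanks, centering, normalization and each library left out.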

Additional observations from a re-analysis of the deposited data

Results flagged for a closer look

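The difference between the populations had opposite signs in the libraries numbered 2 and 3 for *Sox5* (0.09 and −0.24) and *Acan* (0.53 and −0.02), although the libraries numbered 3 had almost the same value of *Acan*. The difference in number 3 minus that in number 2 was −0.33 for *Sox5* and −0.55 for *Acan* on the log2 scale. With 1 library of each population per number, this was not tested.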

How the results depend on the processing

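When single libraries were left out, the number of cartilage genes lower in reporter+ cells ranged from 2 of 8 (without reporter+ library 3) to 8 of 8 (without reporter+ library 2, or without reporter- library 3), and was 3 without reporter- library 2. Leaving out 1 library leaves the numbers unbalanced, so that these values also hold part of the difference between numbers. The log2 fold change then ranged from −0.89 to 0.74 for *Sox5*, −0.76 to 1.69 for *Sox6*, −0.64 to 0.15 for *Sox9*, −1.65 to 2.16 for *Acan*, −3.60 to 0.58 for *Col2a1* and −1.98 to 0.50 for *Cspg4*, and it kept its sign for *Col10a1* (−1.74 to −0.04) and *Otor* (−1.06 to −0.55). With the library number as a replicate block, 29 of all genes and 1 other cartilage gene (*Mmp13*, adjusted p = 0.0101) had an adjusted p under 0.05, but 0 of the 8 cartilage genes, whose smallest was 0.210 for *Cspg4*, beside 3 with an unadjusted p under 0.05 (*Cspg4*, *Col2a1* and *Col10a1*), as had 913 (6.33%) of all genes and 9 of the 59 other cartilage genes. The block without a variance trend, added after seeing the data, gave 0 of all genes, and 2 of the 8 cartilage genes and 941 of all genes had an unadjusted p under 0.05. The fits without a block also gave 0 of all genes, with 62 to 273 at an unadjusted p under 0.05. No source says that libraries with the same number belong together; their deviations from the population mean had a correlation of 0.681 across genes, which are not replicates. After a filter that kept mean log2 values from 0 upward, 14 of 36 other cartilage genes were lower in reporter+ cells. The filter left 4 of the 8 cartilage genes (*Sox5*, *Sox9*, *Col2a1* and *Cspg4*), and all 4 were lower in reporter+ cells. With a pseudocount of 1 the log2 fold changes kept their sign but were smaller: the median of the 8 genes was −0.16 in place of −0.49, and the value was −0.83 for *Col2a1*, −0.39 for *Col10a1*, −0.57 for *Cspg4*, −0.19 for *Sox9*, −0.04 for *Sox5*, 0.17 for *Sox6* and 0.07 for *Acan*. For *Otor* it was −0.13, and its differences within the numbers were −0.06 and −0.20. With another trend setting, centering, normalization or treatment of blanks, none of the 8 cartilage genes passed the threshold or changed direction. Depth is unknown, so the precision of low values such as those of *Col9a1* cannot be stated.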
